A study of Mus musculus with 6 samples.

Results

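Nectins and SynCAMs are small families of immunoglobulin-like adhesion molecules, and their 8 mouse genes were followed here through RNA of sensory neurons and of the spinal cord midline. The members were the table's symbols Pvrl1, Pvrl2, Pvrl3 and Pvrl4, now named Nectin1 to Nectin4, and Cadm1, Cadm2, Cadm3 and Cadm4. All 8 were found among 22869 gene symbols, and each was read from the transcript row with the highest summed count. The 6 libraries came from mouse embryos at E14.5, of a strain given as mixed. For 3 of them (replicates 2, 8 and 9), dorsal root ganglia of embryos with the genotype Ret-CreERT2; Rosa26-Tdtomato were dissociated with trypsin, and Ret+ RA mechanoreceptors were sorted after the mothers had been given 1.5 and 2 mg of 4-hydroxytamoxifen by gavage. The labels did not say which dose belonged to which library. The other 3 (replicates 2, 3 and 5) were roof plate-derived dorsal column midline cells, cut by laser from frozen, hematoxylin-stained wild-type spinal cords. Tamoxifen labelling marks cells by the Ret promoter at the time of the dose, and capture by laser takes every cell in the cut area. Cell type, tissue, genotype, tamoxifen and isolation cannot be told apart in this design, nor can fewer cells of a type and less RNA per cell. The labels did not say whether replicates were separate embryos or litters, so p-values measure only the spread between these libraries, which may be technical.

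Nectins bind in trans to themselves and, more strongly, to other nectins, nectin-1 to nectin-3 among them, and afadin ties their cytoplasmic ends to actin. In the embryonic cord nectin-1 is known from commissural axons and nectin-3 from the floor plate. SynCAMs, also called nectin-like molecules or Cadm proteins, bind one another across contacts between cells, and their ends bind band 4.1 proteins and PDZ scaffolds such as CASK. In peripheral nerve, Cadm3 on the axon meets Cadm4 on the Schwann cell.

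Libraries held 12031898 to 13801474 counts over all transcript rows in mechanoreceptors and 5599811 to 8081153 in the midline, where 3 counts were worth 0.346 to 0.383 and 0.474 to 0.669 CPM (reads counted for a gene, scaled to a common TMM-adjusted library size). Ret, the gene behind the label, stood at 988, 1036 and 788 CPM in mechanoreceptors 2, 8 and 9 and at 13.6, 41.9 and 20.8 CPM in midline 2, 3 and 5 (a log2 difference of 5.21, adjusted p = 0.000361). The 6 sensory neuron markers summed to 4860 to 6895 CPM in mechanoreceptors and 159 to 350 CPM in the midline. The 5 mechanoreceptor markers, Ret among them, summed to 7575 to 11107 CPM in mechanoreceptors and 208 to 364 CPM in the midline. Maf, Gfra2 and Nefm had means of 128, 608 and 7197 CPM in mechanoreceptors and 52.2, 57.3 and 126 CPM in the midline. The last of the list, Mafa, a mechanoreceptor transcription factor gene, had 1, 2 and 0 counts in the sorted libraries and was at 0 in the midline. The 6 roof plate markers summed to 2.61 to 5.31 CPM in mechanoreceptors and to 189, 549.9 and 787 CPM in midline 2, 3 and 5. Midline 2 stood apart in markers of other tissues. In midline 2, 3 and 5 the 6 skeletal muscle markers summed to 12326, 150.1 and 1226 CPM, the 5 keratinocyte markers to 554, 18.1 and 13.7 CPM and the 5 connective tissue markers to 6516, 576 and 1039.9 CPM. The 5 dorsal horn neuron markers were highest in midline 3, at 76.03, 607 and 208 CPM.

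The coding ends give only the final stretch of each protein, not the whole of its cytoplasmic part, and they are shown first. Each line gives the last 30 coding bases before the stop codon, with the last 12, the final 4 codons, in capitals. The sequences are of the GENCODE M21 transcript (GRCm38) paired with the row's RefSeq accession, and rows of Pvrl2 and Pvrl3 with another end are included.
Pvrl1, NM_021424, chromosome 9: tctttcatttccaagaaaGAGTGGTATGTG
Pvrl2, NM_001159724, chromosome 7: tccctcatctctcggcggGCAGTTTACGTG
Pvrl2, NM_008990, chromosome 7: gacttttttgtgtcacggGCCATGTATGTG
Pvrl3, NM_021495, chromosome 16: tccgtaatttccaggaggGAGTGGTATGTC
Pvrl3, NM_021496, chromosome 16: ctctacatcaacccacgaGAACATTATGTG
Pvrl3, NM_021497, chromosome 16: cttggccaggtacgtgctCTCGAAGACACT
Pvrl4, NM_027893, chromosome 1: atctacatcaacgggcgaGGGCACCTGGTC
Cadm1, NM_207675, chromosome 9: aactccgaagaaaagaaaGAGTACTTCATC
Cadm2, NM_178721, chromosome 16: aatgccgaagagaaaaaaGAGTATTTCATT
Cadm3, NM_053199, chromosome 1: ggcggggatgacaagaagGAATATTTCATC
Cadm4, NM_153112, chromosome 7: ggacacaaacggaaagaaGAATTCTTCATT
In the 4 SynCAMs the capitals matched each other at 9 or 10 of 12 bases. Those of Pvrl1 and the kept Pvrl3 row matched at 11 of 12, while Pvrl4 matched Pvrl1 at 4 of 12. The other Pvrl3 rows shared 7 (NM_021496) and 1 (NM_021497) of 12 bases with the kept row, and the other Pvrl2 row shared 8. In nectins the conserved end is the stretch that binds afadin, and in SynCAMs it binds PDZ domains. The listed ends of Cadm1 did not differ between its rows, nor did those of Cadm2 or Pvrl4.

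All 8 members passed the filter on low counts. Cadm2 and Pvrl2, 2 of 8, were called higher in mechanoreceptors, and 0 were called higher in the midline by edgeR, by DESeq2 or by limma-voom, or at an unadjusted p under 0.05. The test was the quasi-likelihood F test of edgeR, with p-values adjusted by Benjamini and Hochberg over 15314 genes and a threshold of 0.05. Of all genes tested, 18.8% passed toward mechanoreceptors and 18.9% toward the midline (37.8% in all, or 48.0% at an unadjusted p under 0.05), so the share of members called is close to that background and is not a result about the members. The libraries of the groups did not overlap for the same 2 members, against 27.3% of all genes toward mechanoreceptors and 27.5% toward the midline (54.8% in all). With upper-quartile scaling, 2149 and 3673 genes were called in these directions in place of 2886 and 2902. The fitted log2 fold change (mechanoreceptor minus midline) was above 0 in 7 of 8 members, with a median of 0.69 against -0.049 over all genes tested. The direction of the other, Pvrl1, was not stable across settings.

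**Figure D1:**
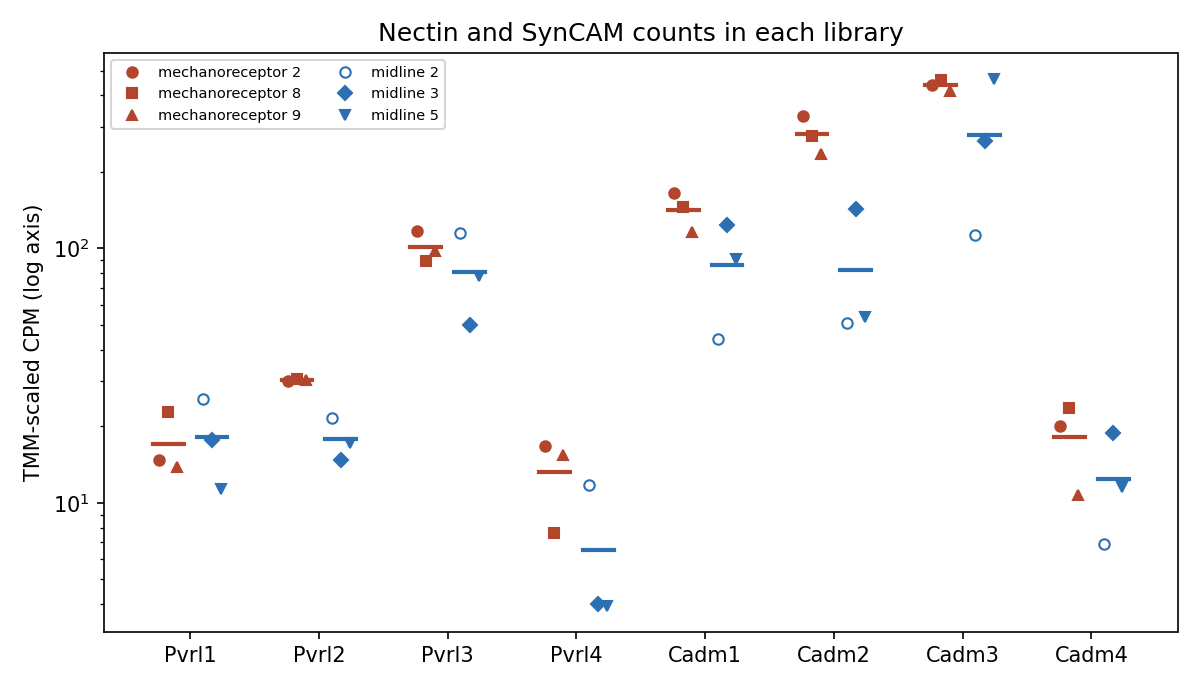
TMM-scaled CPM of each member on a log axis in the 3 mechanoreceptor (red) and 3 midline (blue) libraries. Points are libraries, horizontal lines are group means, and midline 2 is drawn open. Groups are apart for Pvrl2 and Cadm2, and midline 2 is the highest midline point for each nectin and the lowest for each SynCAM.

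Among the SynCAMs, Cadm2, an adhesion molecule of neurons and their axons, differed most. It stood at 332, 277 and 235 CPM in mechanoreceptors 2, 8 and 9 and at 50.8, 142 and 53.8 CPM in midline 2, 3 and 5. Every sorted library was above every midline library, and midline 3 was the highest of its group. Midline 3 also held the most dorsal horn neuron marker RNA of the midline libraries. The same held for sensory neuron markers (159, 350 and 227 CPM in midline 2, 3 and 5) and mechanoreceptor markers (208, 364 and 211 CPM). The log2 fold change was 1.78 (SE 0.41, adjusted p = 0.0118), a 3.42-fold difference. The part of dorsal horn neurons or of sensory neuron RNA in the midline level was not tested. Without midline 3 the log2 fold change was 2.43 (adjusted p = 0.000207). The call held in each of 15 alternatives, with adjusted p from 0.000207 to 0.0447. By the authors' deposited table the row was lower in the midline by a log2 fold change of -2.16 (false discovery rate 4.21e-06).

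Cadm1, known as SynCAM1 and able to induce synapses, stood at 166, 145 and 116 CPM in mechanoreceptors 2, 8 and 9. In midline 2, 3 and 5 it stood at 43.9, 124 and 91.2 CPM. The groups met, since midline 3 lay above mechanoreceptor 9. The log2 fold change was 0.72 (SE 0.35, adjusted p = 0.142), and it passed only without midline 3 (1.08, adjusted p = 0.03295). In the authors' deposited table the same row had a false discovery rate of 0.0322 and a log2 fold change of -1.06 (midline minus mechanoreceptor).

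Cadm3, the axonal partner of Cadm4 in peripheral nerve, had the highest CPM of the members in mechanoreceptors and was even there, at 440.1, 461 and 417 CPM. In the midline it ranged from 113 CPM in library 2 over 263 CPM in library 3 to 462 CPM in library 5. Midline 5 was thus level with the highest sorted library, and midline 2 was 4.08-fold below midline 5. Summed roof plate markers and summed radial glia markers had the same order across midline libraries 2, 3 and 5. The radial glia sums were 1358, 3999 and 4797 CPM. Among single roof plate markers, Msx1 and Wnt1 kept this order, while Lmx1a, Gdf7, Zic1 and Rspo1 did not. Among radial glia markers, Fabp7, Sox2, Slc1a3 and Pax6 kept it and Nes did not. The part of roof plate and radial glia cells in the Cadm3 level was not tested. The log2 fold change of 0.65 (SE 0.44, adjusted p = 0.267) did not pass, except without midline 5 (1.25, adjusted p = 0.0444), and was 0.30 without midline 2.

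Cadm4, the SynCAM of Schwann cells and other glia, was the least counted of the family. It stood at 20.1, 23.5 and 10.7 CPM in mechanoreceptors 2, 8 and 9 and at 6.9, 18.7 and 11.5 CPM in midline 2, 3 and 5, and the groups overlapped (a log2 difference of 0.56 with SE 0.45, adjusted p = 0.364). The 5 Schwann cell and satellite glia markers summed to 44.5, 80.8 and 39.2 CPM in the sorted libraries, in the same order as Cadm4. In the midline they summed to 59.2, 16.95 and 20.05 CPM, where Cadm4 was lowest in the library with the most of them.

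Among the nectins, Pvrl2 (nectin-2), a widely expressed junction protein, passed the test. It stood at 30.1, 30.6 and 30.5 CPM in mechanoreceptors 2, 8 and 9, nearly level, and at 21.7, 14.7 and 17.2 CPM in midline 2, 3 and 5. Sorted libraries were all above the midline ones, by a log2 fold change of 0.77 (SE 0.25, adjusted p = 0.0406), or 1.7-fold. This call was narrow. It was lost in 7 of 15 alternatives, which were upper-quartile scaling (adjusted p = 0.112), the sum of all transcript rows (0.128) and the removal of mechanoreceptor 2, 8 or 9 or midline 3 or 5 (0.0846 to 0.106). The log2 fold change lay from 0.55 to 0.95 over the alternatives.

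Pvrl3 (nectin-3), the heterophilic partner of nectin-1, was the most counted nectin in every library. It stood at 118, 89.5 and 97.4 CPM in mechanoreceptors 2, 8 and 9 and at 115, 49.97 and 77.8 CPM in midline 2, 3 and 5. The groups overlapped through midline 2 (a log2 difference of 0.33 with SE 0.30, adjusted p = 0.421).

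Pvrl1 (nectin-1), the axonal nectin of the commissural system, stood at 14.8, 22.7 and 13.8 CPM in mechanoreceptors and at 25.7, 17.6 and 11.4 CPM in midline 2, 3 and 5. Each group spanned much of the other's range (a log2 difference of -0.093 with SE 0.38, adjusted p = 0.865). The sign changed in 5 of 15 alternatives, among them the removal of midline 2, and 0 of them gave a call.

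Pvrl4 (nectin-4), best known from skin and placenta, had the lowest mean CPM of the members in the midline, though Cadm4 was lower in midline 2. Its counts of 145, 64 and 121 in mechanoreceptors 2, 8 and 9 were worth 16.7, 7.6 and 15.5 CPM. Counts of 73, 18 and 25 in midline 2, 3 and 5 were worth 11.7, 4.02 and 3.95 CPM, so midline 2 lay inside the sorted range and the others below it. The log2 fold change of 1.01 (SE 0.54, adjusted p = 0.176) did not pass. Without midline 2, the library with the keratinocyte RNA, it was 1.76 (adjusted p = 0.0265). The part of keratinocyte RNA was not tested.

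**Figure D2:**
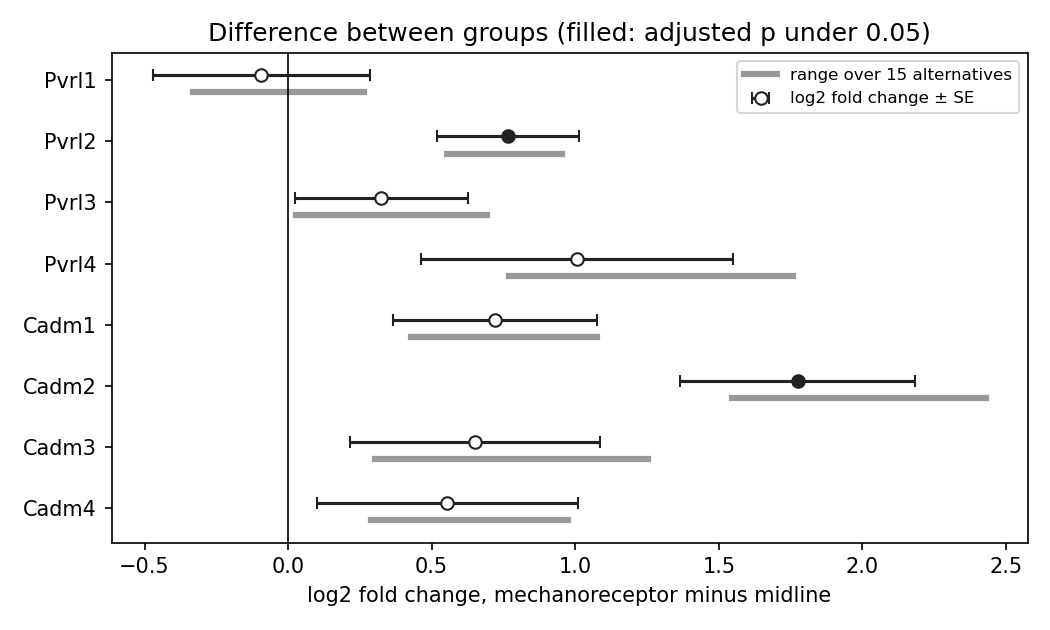
Log2 fold change, mechanoreceptor minus midline, of each member from the edgeR fit (points, bars ± SE, filled where adjusted p was under 0.05), with grey bars for the range over 15 alternatives. Cadm2 has the largest fitted value, at 1.78, and stays above 0 over its range, Pvrl2 is filled near the threshold, and the range of Pvrl1 spans 0.

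The families lay at opposite ends in midline 2. Of the midline libraries, number 2 was the highest for 4 of 4 nectins and the lowest for 4 of 4 SynCAMs, whereas over all genes tested it was the highest in 35.7% and the lowest in 35.4%. Summed CPM of the 4 nectins was 174, 86.3 and 110.3 in midline 2, 3 and 5, which overlapped the 179, 150.4 and 157 of mechanoreceptors 2, 8 and 9. Summed CPM of the 4 SynCAMs was 215, 549 and 619 in the midline, all below the 958, 907 and 777 of mechanoreceptors. Without midline 2 the log2 fold changes of Cadm1, Cadm2, Cadm3 and Cadm4 were 0.43, 1.55, 0.30 and 0.29, each smaller than with it. Those of Pvrl1, Pvrl2, Pvrl3 and Pvrl4 were then 0.27, 0.95, 0.69 and 1.76, each larger. These directions follow from the ranks of midline 2 and add no further evidence. The pattern in midline 2 was not a planned result. Midline 2 also had the highest sums of muscle, keratinocyte, connective tissue, cartilage, oligodendrocyte precursor, and Schwann cell and satellite glia markers of the midline libraries. Its sums of roof plate, radial glia, dorsal horn neuron and sensory neuron markers were the lowest. Its mechanoreceptor marker sum was the lowest too, by little (208 CPM against 211 CPM in midline 5). The part of these tissues and cell types in the nectin and SynCAM levels was not tested. The fold between the highest and lowest library was larger in the midline than in mechanoreceptors for 8 of 8 members. It ran from 1.47-fold for Pvrl2 to 4.08-fold for Cadm3 in the midline, against 1.02-fold for Pvrl2 to 2.2-fold for Pvrl4 in mechanoreceptors. The share of all genes with a larger spread in the midline was not computed, so this is not a result about the members.

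To set members against each other, CPM was divided by the length of the GENCODE transcript matched to the row (CPM per kilobase). In mechanoreceptors Cadm3 was at 85.2 ± 4.34 CPM per kilobase, Cadm1 at 66.9 ± 11.9, Pvrl3 at 33.2 ± 4.74 and Cadm2 at 29.4 ± 5.12 (SD, n = 3). Below these lay Pvrl2 at 15.6 ± 0.146, Cadm4 at 8.38 ± 3.06, Pvrl4 at 3.65 ± 1.36 and Pvrl1 at 3.02 ± 0.863 CPM per kilobase (SD, n = 3). The libraries of Pvrl3 and Cadm2 overlapped, as did those of Pvrl4 and Pvrl1, and the other neighbours in this order were apart. In the midline the order ran from Cadm3 (54.2 ± 33.96) and Cadm1 (40.6 ± 18.9) over Pvrl3 (26.4 ± 10.7) to Pvrl2 (9.14 ± 1.796), Cadm2 (8.61 ± 5.43), Cadm4 (5.73 ± 2.76), Pvrl1 (3.22 ± 1.27) and Pvrl4 (1.803 ± 1.23 CPM per kilobase, SD, n = 3). There only Pvrl3 and Pvrl2 were apart among neighbours. These orders depend on transcript models for the genes with several rows. With the 2768 bases of its other row, which had nearly the same counts, Cadm2 would stand at 102 ± 17.7 CPM per kilobase in mechanoreceptors and 29.7 ± 18.8 in the midline (SD, n = 3). With rows of 1254 or 4482 bases Cadm1 would stand at 113 ± 20.2 or 31.7 ± 5.64 CPM per kilobase in mechanoreceptors (SD, n = 3). Per kilobase, the SynCAM sum was 3.04 to 3.88 times the nectin sum in mechanoreceptors and 0.907, 4.74 and 3.85 times it in midline 2, 3 and 5. These values depend on the transcript models too. In midline 2 the SynCAM and nectin sums were 51.1 and 56.4 CPM per kilobase. With its row of 2768 bases, Cadm2 would stand there at 18.4 in place of 5.32, so which sum is larger depends on the model.

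Ratios within a library were compared for 7 pairs of members that bind each other or share functions. The log2 ratio of Cadm1 to Cadm2 per kilobase was 1.17, 1.24 and 1.15 in mechanoreceptors 2, 8 and 9 and 1.96, 1.97 and 2.93 in midline 2, 3 and 5. The ratio was thus higher in every midline library, by 1.1 on average on the log2 scale. Which of these genes stood higher depends on the transcript model, while the difference between groups does not. With its row of 2768 bases, Cadm2 would stand at 102 ± 17.7 CPM per kilobase in mechanoreceptors, above Cadm1 at 66.9 ± 11.9 (SD, n = 3). The log2 ratio of Cadm2 to Cadm4 was 1.899, 1.41 and 2.297 in mechanoreceptors and 0.72, 0.77 and 0.07 in the midline, a difference of 1.35. For both, the exact two-sided permutation test over libraries gave p = 0.1, the smallest that 3 against 3 allows, and p = 0.35 adjusted over the 7 pairs. The axonal and glial partners Cadm3 and Cadm4 had log2 ratios of 3.42 ± 0.53 and 3.13 ± 0.82 in mechanoreceptors and midline (SD, n = 3, exact permutation p = 0.6). The nectin partners Pvrl1 and Pvrl3 had -3.48 ± 0.54 and -3.03 ± 0.63 (SD, n = 3, exact permutation p = 0.4). The other 3 pairs, Pvrl2 to Pvrl3, Pvrl1 to Pvrl4 and Cadm1 to Cadm4, overlapped as well (exact permutation p = 0.2, 0.3 and 0.5).

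Transcript rows of Pvrl3 differed between the groups in proportion, a feature picked after its values were seen. The kept row, NM_021495, codes for 549 codons and ends nearly as Pvrl1 does, while NM_021496 and NM_021497 code for 510 and 438 and end otherwise, as printed above. The count of NM_021496 was 37.9%, 41.8% and 36.8% of that of the kept row in mechanoreceptors 2, 8 and 9 and 47.4%, 70.98% and 75.9% in midline 2, 3 and 5. The count of NM_021497 was 37.5%, 41.97% and 38.01% of it in mechanoreceptors and 45.9%, 68.75% and 66.9% in the midline. Groups did not overlap for either row, and midline 2 lay closest to the sorted libraries. Reads in shared exons stand in several rows, so these percentages are not isoform fractions. Among 977 further rows of all genes whose kept row had at least 10 counts in every library and 100 in all, and whose share was under 90% on average, 27.7% had groups that did not overlap, 14.8% with the midline higher. In the authors' deposited table, the log2 fold changes (midline minus mechanoreceptor) were -0.54 for NM_021495, 0.11 for NM_021496 and -0.00028 for NM_021497, with false discovery rates of 0.217, 0.958 and 1. For Pvrl2, the row NM_008990 had 50.2%, 34.1% and 34.7% of the kept row's count in mechanoreceptors and 69.6%, 40.9% and 69.7% in the midline, where midline 3 lay inside the sorted range. Rows of Cadm1, Cadm2 and Pvrl4 had 94.4% to 100% of the kept row's count in every library, so their splice forms could not be told apart. RNA quality, which can move counts along a transcript, was not tested.

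**Figure D3:**
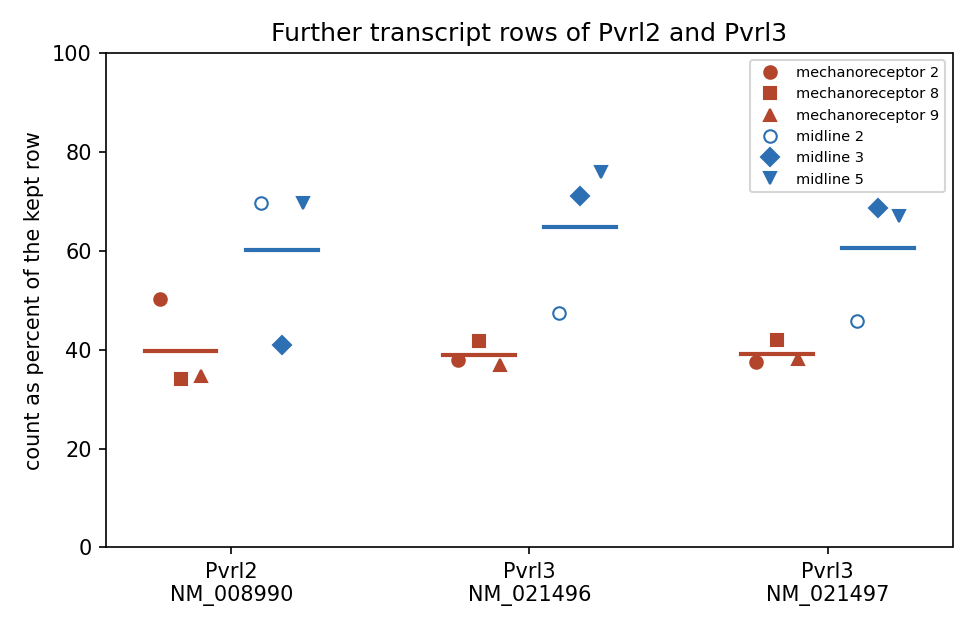
Count of further transcript rows of Pvrl2 and Pvrl3 as a percent of the kept row's count, in the 3 mechanoreceptor (red) and 3 midline (blue) libraries, with group means as lines and midline 2 open. Both Pvrl3 rows lie from 36.8% to 42% in mechanoreceptors and from 45.9% to 75.9% in the midline.

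The partners on the cytoplasmic side of SynCAMs differed in both directions. Of 16 genes in that list, all tested, 8 were called toward mechanoreceptors and 4 toward the midline, where 18.8% and 18.9% of all genes tested were, with a median log2 fold change of 0.84 against -0.049 over all genes tested. The largest difference was in Apba1 (Mint1), a partner of CASK in presynaptic scaffolds, at 331, 322 and 303 CPM in mechanoreceptors 2, 8 and 9 and 31.8, 83.7 and 37.1 CPM in midline 2, 3 and 5 (a log2 difference of 2.65 with SE 0.37, adjusted p = 0.00175). Epb4.1l3, a band 4.1 protein that binds the SynCAM juxtamembrane stretch, stood at 496, 524 and 558 CPM against 164, 50.9 and 76.6 CPM (a log2 difference of 2.44 with SE 0.41, adjusted p = 0.00349, or 3.07 without midline 2). Cask, the scaffold kinase that binds SynCAM ends, stood at 523, 482 and 457 CPM against 175, 249.8 and 157 CPM (a log2 difference of 1.33 with SE 0.23, adjusted p = 0.00399). In these 3 genes every sorted library was above every midline library, which held for 10 of the 16 genes in the list. For 4 of the 16 every midline library was above every sorted one. Of all genes tested, 27.3% and 27.5% were apart in these directions. Epb4.1l1 (0.93, SE 0.25, adjusted p = 0.0221) was the fourth by level. Its call was lost with upper-quartile scaling (adjusted p = 0.058), on the deposited log2 values (0.0711) and without any of mechanoreceptors 2, 8 and 9 or midline 5 (0.0584 to 0.0659). The other 4 were Mpp1, Mpp3, Lin7a and Lin7b, with log2 fold changes from 0.81 to 1.63. Mpp3 passed in each of 15 alternatives, while Mpp1, Lin7a and Lin7b lost their calls in 3 to 5 of them, without mechanoreceptor 2 (adjusted p = 0.0628 to 0.0814) or 8 (0.0591 to 0.0645) among others. Without midline 3 the log2 fold change of Lin7a was 2.05 in place of 1.45 and that of Lin7b 2.27 in place of 1.63, and Lin7b was at 2.23 on the deposited log2 values.

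In the midline, Mpp6, a membrane scaffold of the same class as Mpp1, was higher, at 152, 143 and 315 CPM against 61.2, 52.5 and 80.2 CPM in mechanoreceptors (a log2 difference of -1.65 with SE 0.34, adjusted p = 0.00791). The band 4.1 genes Epb4.1 (-0.75, SE 0.19, adjusted p = 0.01696) and Epb4.1l2 (-1.07, SE 0.30, adjusted p = 0.0249) and the Rac exchange factor gene Tiam1 (-1.88, SE 0.40, adjusted p = 0.008795) were higher there too. Epb4.1l2 lost its call without mechanoreceptor 2, 8 or 9 (adjusted p = 0.0744 to 0.0899), as did Epb4.1, which also lost it without midline 5 (0.0518 to 0.0714). The band 4.1 genes thus went opposite ways, Epb4.1l1 and Epb4.1l3 toward the neurons and Epb4.1 and Epb4.1l2 toward the midline. Lin7c (406 ± 43.3 against 280 ± 83.9 CPM, SD, n = 3; adjusted p = 0.136, or 0.0361 without midline 3) and Sdcbp, which codes for syntenin (244 ± 37.1 against 251 ± 95.1 CPM, SD, n = 3; adjusted p = 0.916), did not pass.

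Of 10 cytoplasmic partners of nectins, all tested, 4 were called toward the midline and 1 toward mechanoreceptors, against 18.9% and 18.8% of all genes tested, with a median log2 fold change of -0.66. Mllt4, now Afdn, encodes afadin, the direct link of nectins to actin. It stood at 209, 201 and 177 CPM in mechanoreceptors 2, 8 and 9 and at 156, 194 and 182 CPM in midline 2, 3 and 5, and the groups overlapped (a log2 difference of 0.14 with SE 0.18, adjusted p = 0.561, or -0.069 with upper-quartile scaling and -0.24 on the deposited log2 values). Tjp1, which encodes the junction scaffold ZO-1, stood at 84.999, 61.2 and 65.003 CPM against 249, 236 and 319 CPM in the midline (a log2 difference of -1.93 with SE 0.22, adjusted p = 0.00091). Mpdz, a protein of many PDZ domains, was 46.4, 41.8 and 46.6 CPM against 165, 71.4 and 139 CPM (a log2 difference of -1.48 with SE 0.30, adjusted p = 0.00776). Both were higher in every midline library than in any sorted one, which held for 6 of the 10 genes in the list and 27.5% of all genes tested. Lmo7, an afadin-binding protein gene also active in muscle, had only 2, 1 and 3 counts in mechanoreceptors 2, 8 and 9 and stood at 112, 16.95 and 19.4 CPM in midline 2, 3 and 5 (a log2 difference of -7.58 with SE 1.04, adjusted p = 0.00164). The fitted value of so few counts depends on the prior count. Summed counts were 898 in the midline, 699 of them in midline 2, and 6 in mechanoreceptors. Scaled for library size, they gave a ratio of 219 (95% exact interval 100 to 598, counting error only). Lmo7 was highest in the library with the muscle markers, and its log2 fold change was -6.11 without midline 2 (adjusted p = 0.000223), -5.92 when fitted to the deposited log2 values and -6.95 by limma-voom. Pard3, a polarity protein that binds nectins (57.1 ± 14.4 against 30.1 ± 3.62 CPM, SD, n = 3; a log2 difference of -0.93 with SE 0.25, adjusted p = 0.0207), lost its call without mechanoreceptor 2, 8 or 9 or midline 2 or 5 (adjusted p = 0.0515 to 0.0767). Pick1, a PDZ protein reported at nectin junctions, was the one called toward mechanoreceptors (46.8 ± 2.06 against 26.2 ± 2.52 CPM, SD, n = 3; a log2 difference of 0.84 with SE 0.20, adjusted p = 0.0136). It lost the call without mechanoreceptor 8 (adjusted p = 0.0506). Ctnnd1, which encodes p120-catenin (-0.398, SE 0.18, adjusted p = 0.11), did not pass, except with upper-quartile scaling (0.0304), DESeq2 (0.0386) and the deposited log2 values (0.00891).

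**Figure D4:**
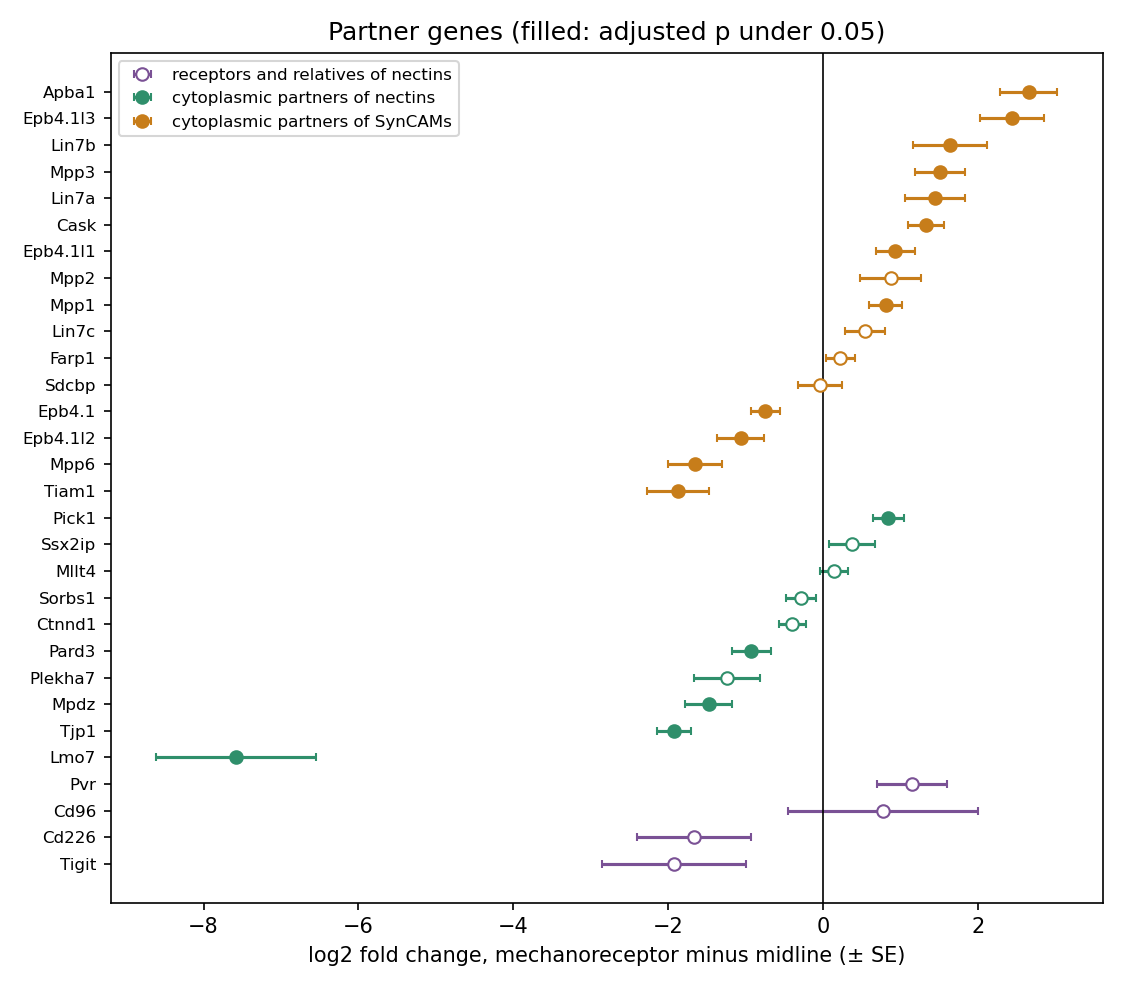
Log2 fold change, mechanoreceptor minus midline, ± SE for 30 tested partner genes in 3 lists, filled where adjusted p was under 0.05. SynCAM partners (orange) spread from -1.88 to 2.65, nectin partners (green) lie mostly below 0 with Lmo7 at -7.58, and the relatives (purple) are all open.

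Of 5 extracellular receptors and relatives of nectins, 4 were tested and 0 called by edgeR, with 1 (Pvr) at an unadjusted p under 0.05. It passed in 3 of 15 alternatives, which were limma-voom (adjusted p = 0.0406), the deposited log2 values (0.03695) and the removal of midline 2. Pvr, the poliovirus receptor homologue that binds nectin-3, stood at 28.6, 25.3 and 18.9 CPM in mechanoreceptors 2, 8 and 9 and 19.1, 7.14 and 6.47 CPM in midline 2, 3 and 5. Mechanoreceptor 9 and midline 2 met there (a log2 difference of 1.15 with SE 0.46, adjusted p = 0.0802), and without midline 2 the log2 fold change was 1.86 (adjusted p = 0.00425). The lymphocyte receptor genes Cd226, Tigit and Cd96 had means of 0.674 to 3.93 CPM in either group. Cd226 (a log2 difference of -1.67 with SE 0.74, adjusted p = 0.11) and Tigit (-1.92 with SE 0.92, adjusted p = 0.135) did not overlap between groups. Of all genes tested, 27.5% did so toward the midline. Counts were few, at 7, 14 and 9 against 11, 35 and 14 for Cd226 and 2, 14 and 1 against 11, 17 and 15 for Tigit. For both, mechanoreceptor 8 (1.66 CPM) lay just below midline 2 (1.76 CPM). Tigit moved to -3.71 without mechanoreceptor 8 (adjusted p = 0.03001) and to -1.02 on the deposited log2 values. Cd226 moved to -0.71 without midline 3 and to -0.38 on those values. Crtam, a receptor of Cadm1, did not pass the filter. Over all 3 lists, 9 of 30 tested genes were called higher in mechanoreceptors and 8 in the midline, against 18.8% and 18.9% of all genes. Without mechanoreceptor 8 these counts were 4 and 6 (12.1% and 11.9% of all genes). Without mechanoreceptor 2 they were 5 and 5 (13.4% and 12.2%), and without mechanoreceptor 9 they were 6 and 5 (13.6% and 12.5%).

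For each of the called members, the 2 genes with the most similar profile over the 6 libraries were sought among 11045 genes of at least 10 CPM on average, by the root-mean-square distance of centred log2 CPM. For Cadm2 these were Iglon5, itself a gene of immunoglobulin-like adhesion molecules (distance 0.057), and Disp2 (0.093). Iglon5 stood at 142, 126 and 104 CPM in mechanoreceptors 2, 8 and 9 and 20.5, 61.1 and 22.3 CPM in midline 2, 3 and 5, with midline 3 the highest of its group as in Cadm2. For Pvrl2 they were Cc2d1a (0.035) and Rars (0.0495). The 6 libraries fall into 2 groups, which any such profile shares.

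The promoters of the called members are shown because their RNA differed in the same direction. Of the 8 members, 6 had an entry in the RefSeq promoter table (GRCm38.p6, 250 bases before to 50 after the start), Pvrl1 and Cadm1 not among them. The motif GGGCGG, the core of a GC box, was searched on both strands and is in capitals. The first is chr16:67620859-67621158 and the second chr7:19749524-19749823, both on the minus strand.
Cadm2: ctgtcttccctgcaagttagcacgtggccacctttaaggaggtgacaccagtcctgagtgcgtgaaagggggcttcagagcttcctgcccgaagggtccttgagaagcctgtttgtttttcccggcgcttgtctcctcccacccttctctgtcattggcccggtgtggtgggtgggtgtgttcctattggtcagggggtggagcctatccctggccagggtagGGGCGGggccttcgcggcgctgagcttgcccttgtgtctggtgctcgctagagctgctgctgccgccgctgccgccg
Pvrl2 (Nectin2): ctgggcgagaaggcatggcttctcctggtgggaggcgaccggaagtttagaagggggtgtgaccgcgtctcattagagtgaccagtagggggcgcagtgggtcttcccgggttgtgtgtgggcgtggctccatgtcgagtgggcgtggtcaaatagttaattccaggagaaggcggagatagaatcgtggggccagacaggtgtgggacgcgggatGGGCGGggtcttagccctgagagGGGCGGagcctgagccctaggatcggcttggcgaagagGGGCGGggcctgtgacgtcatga
The Cadm2 window held 1 match and the Pvrl2 window 3. Of 32851 promoters of this table, 35.7% held at least 1 match and 10.7% at least 3. Among members that were not called, Pvrl3 held 5, Cadm4 held 4, and Cadm3 and Pvrl4 held 0. The motif TATAAA had 0 matches in these 6 windows and was found in 13.6% of all promoters. A match is a stretch of letters, not a binding site.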

How the data were processed

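RNA of 6 libraries was sequenced (an Illumina preparation, per the labels). The authors deposited whole-number read counts per RefSeq transcript row. Per the submitters' processing notes, the build was mm9 and the tool edgeR, of unstated version. The aligner, counting tool and strand setting are not given in the sources used here. Reads of a gene and its antisense or overlapping partner therefore cannot be told apart. The same deposited table holds log2 expression values (equal largest value in all samples, as quantile normalization gives), used as an alternative only, and, per row, the authors' log2 ratio between groups and a p-value adjusted as a false discovery rate. Its pathway and gene list sheets were not used here.

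For each symbol the row with the highest summed count was kept (22869 of 28644 rows). In R 4.3.3, edgeR 4.0.16 was run with filterByExpr (minimum count 10, minimum total 15), TMM scaling and the quasi-likelihood F test on 4 residual degrees of freedom, and p-values were adjusted over all 15314 genes kept. The SE of a log2 difference was taken as its size over the root of F. DESeq2 1.42.0 and limma 3.58.1 served as alternatives. The fit was tested on simulated data. Ratios used 0.5 added counts. CPM values are scaled by TMM, and counting error alone underlies the floor of 3 counts. Lengths come from GENCODE M21 transcripts paired with the RefSeq accessions.

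The members, partner lists and marker lists were chosen with earlier results of these data known. All members, up to 4 called partners per list and direction by mean CPM, up to 2 not called, and the 2 nearest profiles of each called member were to be named.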

Additional observations from a re-analysis of the deposited data

How the results depend on the processing

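The 15 alternatives were upper-quartile scaling, DESeq2, limma-voom, no filter and a stricter filter on low counts, the sum of transcript rows, the row the authors marked as best, their log2 values, scaling without muscle, keratinocyte and cartilage genes, and the removal of each library. Members higher in mechanoreceptors numbered 1 with upper-quartile scaling and 1 with the sum of rows in place of 2, and 1 to 3 with a library left out. Genes called ranged from 1893 to 3100 toward mechanoreceptors and from 1862 to 3082 toward the midline with a library left out, and partner genes from 4 to 11 and from 5 to 9. The lowest gene counts came without mechanoreceptor 8. Upper-quartile scaling shifted the median log2 fold change of all genes by -0.21. With no filter on low counts the median differed by -0.25 over a larger set of 22217 genes, while Cadm2, Pvrl2 and Pvrl1 moved up to 1.87, 0.86 and 0.0073. The sign turned, with 0 calls, for Pvrl1 with no filter (0.0073), on the deposited log2 values (0.096) and without mechanoreceptor 2 (0.025), mechanoreceptor 9 (0.059) or midline 2 (0.27), in a range from -0.33 to 0.27 with a library left out. It also turned for Mllt4 with upper-quartile scaling (-0.069) and on the log2 values (-0.24), for Cd96 with limma-voom (-0.25), for Farp1 on the log2 values (-0.011), and for Sdcbp with limma-voom (0.0072), no filter (0.047) and without mechanoreceptor 8 (0.095) or midline 5 (0.35; from -0.19 with a library left out). The cause was not tested. The differences in the 7 ratios between members moved by less than 1 SD with 1 count added or a library left out, and that of Cadm3 to Cadm4 turned from 0.29 to -0.011 without mechanoreceptor 9. Leaving out the length cannot change them. No paired analysis was possible because the groups share only the replicate number 2. Depth leaves Pvrl4 with 18 counts in midline 3, the lowest count of a member.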
